A study of Rattus norvegicus with 6 samples.

Results

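The miR-23/24/27 group consists of 5 mature microRNAs, miR-23a-3p, miR-27a-3p, miR-23b-3p, miR-27b-3p and miR-24-3p, measured here in exosomes, small vesicles that cells release into their medium. They were taken by name from the deposited table, where all 5 were among the 763 miRNAs listed. Small RNA was sequenced from exosomes of RBMSC, labelled as wild-type rat mesenchymal stem cells, and isolated from the culture supernatant with a commercial isolation reagent. There were 3 libraries from cells without treatment and 3 from cells kept for 24 h in 200 µM nicorandil, used against angina, which acts as a nitric oxide donor and opens potassium channels gated by ATP. The labels give a single cell line for all 6 libraries and do not say whether replicates came from separate cultures, so p-values measure only the spread between these libraries, which may be technical. In vesicle RNA of this kind, fewer vesicles or cells of a type and less of a miRNA in each cannot be told apart.

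A miRNA is cut from a hairpin in a primary transcript, and its bases 2 to 8, the seed, pair with target mRNAs and lower their translation or stability. The members come from a pair of paralogous clusters, each transcribed as one primary RNA that holds a miR-23, a miR-27 and a miR-24 hairpin. miR-23 and miR-27 are known for roles in blood vessel growth, and miR-27 also as a brake on fat cell differentiation of mesenchymal progenitors. miR-24 is known to act on cell cycle and apoptosis genes. Because both clusters make the same mature miR-24-3p, its reads belong to both at once.

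The sequences are shown because they set what the reads can tell apart. They are RefSeq mature sequences of the GRCr8 build, where all 5 members were found by name, written 5′ to 3′ with the seed in capitals.
miR-23a-3p: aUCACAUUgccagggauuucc
miR-23b-3p: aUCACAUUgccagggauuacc
miR-27a-3p: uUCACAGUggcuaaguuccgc
miR-27b-3p: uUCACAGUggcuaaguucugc
miR-24-3p: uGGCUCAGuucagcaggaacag
Positions are counted from 1 at the 5′ end. miR-23a-3p and miR-23b-3p differ by 1 base, U19A, and share their first 18 bases and their seed. miR-27a-3p and miR-27b-3p also differ by 1 base, C19U. A read trimmed before base 19, or mapped with a mismatch allowed there, could be counted for either copy. The mapping settings are not known here, so the split within each pair is uncertain. The seeds of miR-23 and miR-27 differ from each other at 1 base, U7G. No other listed miRNA with a sequence in that table (686 of the 763) had any of the 3 seeds.

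The miR-23a hairpin cluster lies on chr19:40859455-40859843, a span of 389 bases on the minus strand that overlaps no other gene in the RefSeq table. The miR-23b cluster lies on chr17:1818669-1819482, a span of 814 bases on the minus strand. All 3 of its hairpins lie inside the protein-coding gene Aopep, and Mir24-1 also overlaps Fancc and, on the opposite strand, Mir3074.

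The depth was low and unequal. The untreated libraries held 2212 to 2338 miRNA reads and the nicorandil libraries 8426 to 16628, so 1 read was worth 1.93 to 2.17 deposited units in the former and 0.375 to 0.771 in the latter. The deposited values are normalized reads, placed by the authors on a common library size. On that scale the median log2 fold change of the 121 miRNAs tested (mean value of at least 1) was 0.23. With reads scaled by library totals it was -0.12, and with median-of-ratios size factors 0.11, so each change below is to be read against these medians. The deposited values were also adjusted with the mean of their treatment group, so their spread within a group is not that of plain reads. Both other scalings start from whole reads recovered from those values, without this adjustment. Its part in the differences between the scales was not tested. The TMM factors behind the deposited scale were above 1 in the shallow libraries (1.115 to 1.272) and below 1 in the deep ones (0.8395 to 0.8749), which places nicorandil values higher against untreated ones than library totals do. In a single set of simulated reads of similar depths, miRNAs simulated without a change had a median above 0 in the deeper group on this scale. The same set held miRNAs simulated with rises and falls, and their part in that median was not tested. Whether the scale lifts the real nicorandil values in the same way was not tested. Ratios within a library need no scaling factor. A share of all miRNA reads divides by the library total, as the scaling by library totals does, so a gain of some miRNAs lowers the shares of others. Both are given beside the deposited values. Intervals and floors on reads cover counting error only, because reads copied by PCR and lacking molecular identifiers can stem from one molecule.

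miR-24-3p was far the most abundant member and ranked 4 or 5 among all miRNAs in every library. In normalized reads its mean was 314 ± 30.4 without treatment and 320 ± 19.9 with nicorandil (SD, n = 3). miR-27a-3p came next at 30.3 ± 3.92 and 47.4 ± 6.14, followed by miR-27b-3p at 21.3 ± 1.92 and 23.0 ± 5.73. miR-23a-3p was at 8.85 ± 3.42 and 19.3 ± 0.558, and miR-23b-3p was lowest at 2.58 ± 2.29 and 6.90 ± 4.35. The order was the same in both groups. Neighbours in this order did not overlap in their 3 deposited values, except miR-27b-3p and miR-23a-3p in nicorandil exosomes, whose means differed 1.19-fold. For miR-23a-3p and miR-23b-3p in untreated exosomes the gap was narrow, 5.57 from 2 reads in replicate 2 against 4.99 from 3 reads in replicate 1. As shares of reads these values overlapped, at 0.0904% and 0.135%. The mature lengths are 21 or 22 bases, so these levels need no length correction, but ligation and mapping differences between sequences are not corrected. Within each cluster miR-27 thus had more reads than miR-23, and for both miR-23 and miR-27 the copy of the miR-23a cluster had more reads than that of the miR-23b cluster.

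**Figure D1:**
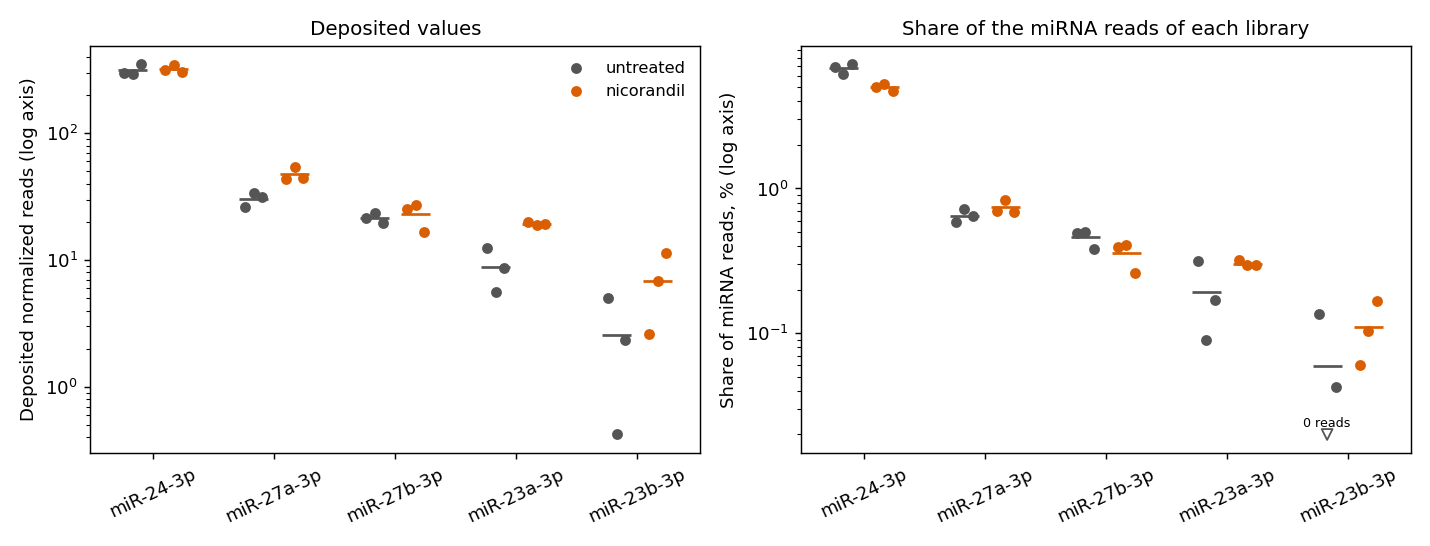
Deposited normalized reads (left) and share of all miRNA reads in percent (right), both on log axes, of the 5 members in each library, with points for libraries and bars for group means (n = 3). miR-24-3p lies about 10.4-fold above miR-27a-3p in untreated exosomes, and the open triangle marks the untreated library with 0 reads of miR-23b-3p.

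On the deposited scale, 2 of the 5 members were higher after nicorandil in limma (Benjamini-Hochberg adjusted p under 0.05 over the 121 miRNAs), namely miR-23a-3p and miR-27a-3p, and none was lower. Among all tested miRNAs 14.0% were called higher and 7.44% lower. The members' median log2 fold change was 0.63, beside 0.23 over all tested. With library totals as the scale the members' median was 0.18 beside -0.12, neither rise was called and miR-24-3p was called lower instead. With median-of-ratios scaling no member was called, with a median of 0.40 beside 0.11.

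**Figure D2:**
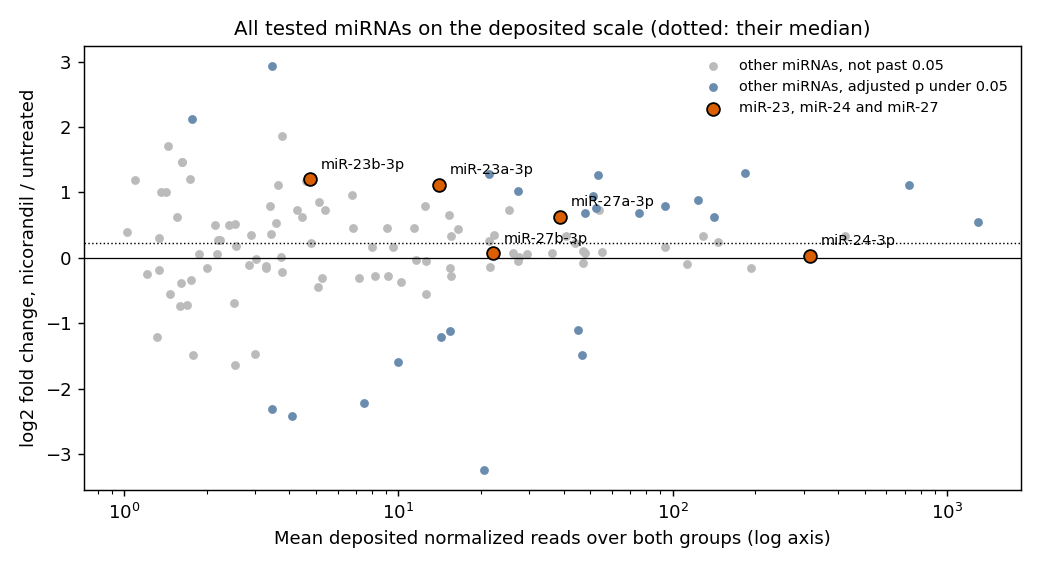
Mean deposited normalized reads (log axis) against log2 fold change of nicorandil over untreated for the 121 tested miRNAs, with the 5 members marked. miR-23a-3p and miR-23b-3p lie near 1.11 and 1.20, while miR-24-3p and miR-27b-3p lie at 0.03 and 0.07, below the dotted median of 0.23.

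miR-24-3p, the member shared by both clusters, had 298, 296 and 349 normalized reads in untreated libraries and 313, 343 and 305 in nicorandil libraries. These values overlap, and the log2 fold change was 0.03 (SE 0.13, 95% interval -0.24 to 0.30, limma adjusted p = 0.897). As a share of reads it took 6.92%, 6.15% and 7.19% of the untreated libraries, from 154, 136 and 168 reads. In the nicorandil libraries it took 5.03%, 5.29% and 4.70%, from 836, 864 and 396 reads. The share was lower in all 3 nicorandil libraries, at 5.01% ± 0.297 against 6.75% ± 0.540 (SD, n = 3). An exact two-sided permutation test gave p = 0.1, which groups of 3 cannot go below, and an adjusted p of 0.327 over the shares of all 121 miRNAs. Of all tested miRNAs, 21.5% had shares that were lower in every nicorandil library. Pooled over libraries, the nicorandil share was 0.749 times the untreated one (95% exact interval 0.677 to 0.831). With library totals, which are also the divisor of the shares, the log2 fold change was -0.43 (limma adjusted p = 0.02). With median-of-ratios scaling it was -0.20 (limma adjusted p = 0.39), so the sign on its own depended on the scale. Relative to the median of all tested miRNAs it lay at -0.20 on the deposited scale and -0.31 on both others, below that median each time.

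miR-27a-3p, from the miR-23a cluster, had 26.1, 33.8 and 31.2 normalized reads without treatment and 43.2, 54.4 and 44.5 with nicorandil. The groups did not overlap on this scale, and 17.4% of all tested miRNAs lay higher in the same way, and it rose by a log2 fold change of 0.63 (SE 0.22, limma adjusted p = 0.0467). Its share of reads overlapped, at 0.585%, 0.723% and 0.642% from 13, 16 and 15 reads against 0.704%, 0.827% and 0.688% from 117, 135 and 58 reads. The pooled share ratio was 1.15 (95% exact interval 0.839 to 1.62). The call was lost whichever library was left out (limma adjusted p 0.0544 to 0.213). It was also lost with library totals (log2 fold change 0.18, limma adjusted p = 0.655) and with quasi-likelihood testing in edgeR (adjusted p = 0.0736). Relative to the median of all tested miRNAs, miR-27a-3p lay at 0.39 on the deposited scale, 0.30 with library totals and 0.30 with median-of-ratios scaling.

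miR-27b-3p, its near-identical counterpart in the miR-23b cluster, had 21.3, 23.3 and 19.5 normalized reads without treatment and 25.1, 27.3 and 16.5 with nicorandil. The lowest value of all 6 was that of nicorandil replicate 3, and the groups overlapped. Its log2 fold change of 0.07 did not pass (SE 0.27, 95% interval -0.51 to 0.65, limma adjusted p = 0.897) and was -0.37 with library totals and -0.15 with median-of-ratios scaling. Relative to the median of all tested miRNAs it lay at -0.16 on the deposited scale and at -0.25 and -0.26 on the others. The pooled share ratio was 0.819 (95% exact interval 0.554 to 1.25).

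miR-23a-3p had 12.4, 5.57 and 8.58 normalized reads in untreated libraries and 19.9, 18.8 and 19.2 in nicorandil libraries. The nicorandil values lay close together and above all untreated ones, and it rose by a log2 fold change of 1.11 (SE 0.35, limma adjusted p = 0.0298). The untreated values rest on 7, 2 and 4 reads, against 53, 48 and 25. With a pseudocount of 10 the log2 fold change was 0.65 and still called (limma adjusted p = 0.0316). As a share of reads the groups overlapped, since untreated replicate 1 at 0.315% lay within the nicorandil range of 0.294% to 0.319%. The 95% Wilson interval of that untreated share ran from 0.153% to 0.648%. The other untreated libraries were at 0.0904% and 0.171%, and the pooled share ratio was 1.59 (95% exact interval 0.895 to 3.06). The rise remained called in 1 of 6 fits with a library left out, that without untreated replicate 1 (limma adjusted p = 0.015). It was not called without untreated replicate 2 or 3 or any nicorandil library (limma adjusted p 0.0609 to 0.128). Nor was it called with library totals (log2 fold change 0.76, limma adjusted p = 0.326) or with quasi-likelihood testing in edgeR (adjusted p = 0.0688). Relative to the median of all tested miRNAs, miR-23a-3p lay at 0.87 on the deposited scale, 0.87 with library totals and 0.86 with median-of-ratios scaling.

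miR-23b-3p was the sparsest member, with 3, 0 and 1 reads in untreated and 10, 17 and 14 in nicorandil libraries. Its deposited values were 4.99, 0.421 and 2.35 against 2.61, 6.78 and 11.3, where the 0.421 stands for 0 reads. A count of 0 in that library allows a share of up to 0.136%, taken as 3 reads, or 0.173% by the Wilson interval. The nicorandil shares of 0.0601% and 0.104% lie under both limits and could not have been told from it at this depth. The share of 0.166% in nicorandil replicate 3 lies under the Wilson limit only. The log2 fold change of 1.20 had an SE of 0.66 and a 95% interval from -0.20 to 2.60, and did not pass (limma adjusted p = 0.264). With a pseudocount of 10 it was 0.41 and with 0.1 it was 1.68, neither called. The pooled share ratio of 1.68 had a 95% exact interval from 0.608 to 6.45.

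**Figure D3:**
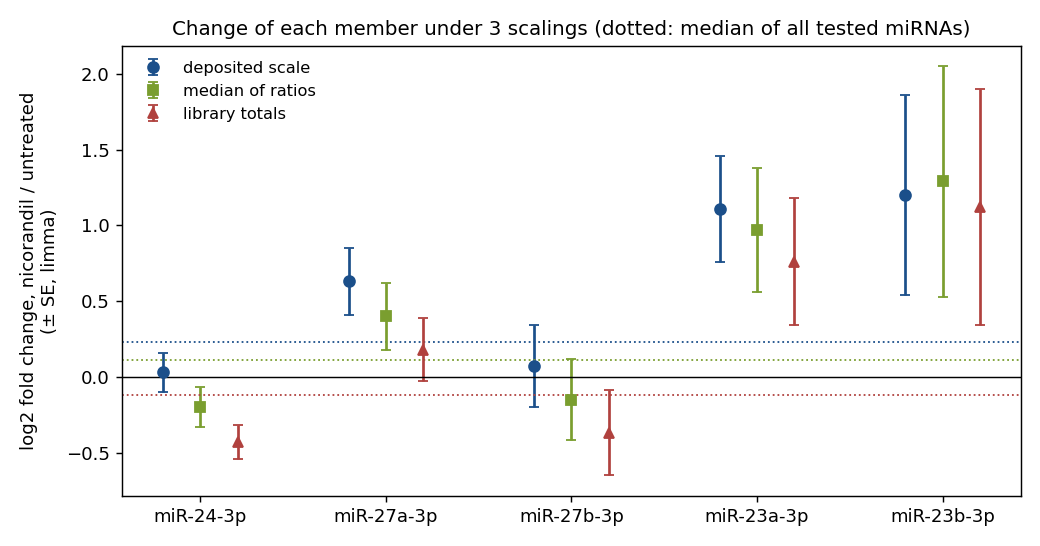
Log2 fold change of nicorandil over untreated for each member with its SE (limma, 3 libraries a group), for the deposited scale, median-of-ratios scaling and library totals. Dotted lines mark the median of the 121 tested miRNAs on each scale; miR-24-3p moves from 0.03 to -0.43 and miR-27a-3p from 0.63 to 0.18 between the deposited scale and library totals.

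The authors' deposited table lists log2 fold changes of 1.12 for miR-23a-3p, 0.65 for miR-27a-3p and 1.26 for miR-23b-3p, and 0.03 for miR-24-3p and 0.14 for miR-27b-3p. Its unadjusted p-values are 0.0107, 0.0148, 0.0865, 0.83 and 0.824 in that order.

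Ratios between members within a library compare the clusters without any scaling. Of the 10 ratios, 4 did not overlap between the groups, and each of these 4 reached 0.1, the lowest value open to the exact permutation test (two-sided; 0.25 adjusted over the 10). They lie among the 6 ratios of members read in every library. Over all 2775 pairs of the 75 tested miRNAs read in every library, 35.1% did not overlap. The ratios share members and are not independent of each other.

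Both miR-27a-3p and miR-23a-3p, of the miR-23a cluster, had more reads after nicorandil relative to miR-24-3p, whose reads belong to both clusters. The log2 ratio of miR-24-3p to miR-27a-3p was 3.57, 3.09 and 3.49 in untreated and 2.84, 2.68 and 2.77 in nicorandil libraries, a difference of -0.62. In pooled reads this is a ratio of 10.4 (95% exact interval 7.63 to 14.5) against 6.76 (6 to 7.64). The log2 ratio of miR-23a-3p to miR-24-3p was -4.46, -6.09 and -5.39 against -3.98, -4.17 and -3.99, a difference of 1.27 for which the untreated libraries differ widely among themselves. The ratio confined to the miR-23a cluster, miR-23a-3p against miR-27a-3p, overlapped between the groups, with a difference of 0.65 (exact permutation p = 0.4).

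For the miR-23b cluster, with miR-24-3p again counted from both clusters, no ratio was separated. The log2 ratio of miR-24-3p to miR-27b-3p was 3.81, 3.63 and 4.22 in untreated and 3.66, 3.69 and 4.17 in nicorandil libraries, a difference of -0.05 (exact permutation p = 0.8). Pooled, miR-24-3p had 14.8 reads for each of miR-27b-3p in untreated (95% exact interval 10.3 to 22.0) and 13.5 in nicorandil exosomes (11.5 to 16.0). Since 1 untreated library had no read of miR-23b-3p, 0.5 was added to both counts for its 4 ratios. miR-23b-3p to miR-27b-3p then differed by 1.22 between group means whose SDs were 1.43 and 1.03, and the libraries overlapped (exact permutation p = 0.5).

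Between the clusters, the ratio of miR-27a-3p to miR-27b-3p was higher in every nicorandil library. On the log2 scale it was 0.24, 0.54 and 0.74 in untreated and 0.83, 1.01 and 1.40 in nicorandil libraries, a difference of 0.57 with group SDs of 0.25 and 0.29. The a copy was thus 54.2%, 59.3% and 62.5% of the reads of the pair in untreated and 63.9%, 66.8% and 72.5% in nicorandil libraries. The groups did not overlap, but the gap between 62.5% and 63.9% is small, and the pooled intervals of 46.7% to 69.9% (75 reads) and 62.2% to 70.9% (465 reads) do overlap. The ratio of miR-23a-3p to miR-23b-3p overlapped, with a difference of -0.12 and SDs of 0.62 and 0.77 (exact permutation p = 0.8). The a copy was 76.5% of 17 untreated reads (95% Clopper-Pearson interval 50.1% to 93.2%) and 75.4% of 167 nicorandil reads (68.2% to 81.8%). Single nicorandil libraries ranged from 64.1% to 84.1%. The log2 ratio of miR-23a-3p to miR-27b-3p, also between the clusters, was -0.65, -2.46 and -1.17 against -0.32, -0.48 and 0.18.

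**Figure D4:**
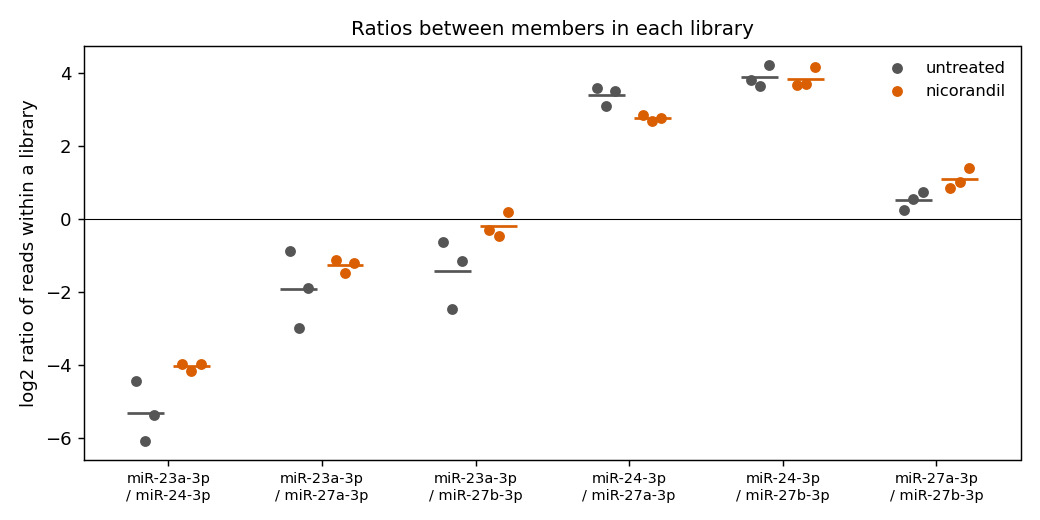
Log2 ratio of reads of 2 members within each library, for the 6 pairs read in every library, with bars at group means (n = 3). miR-24-3p to miR-27a-3p falls from a mean of 3.38 to 2.76, while that of miR-24-3p to miR-27b-3p is 3.89 and 3.84.

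**Figure D5:**
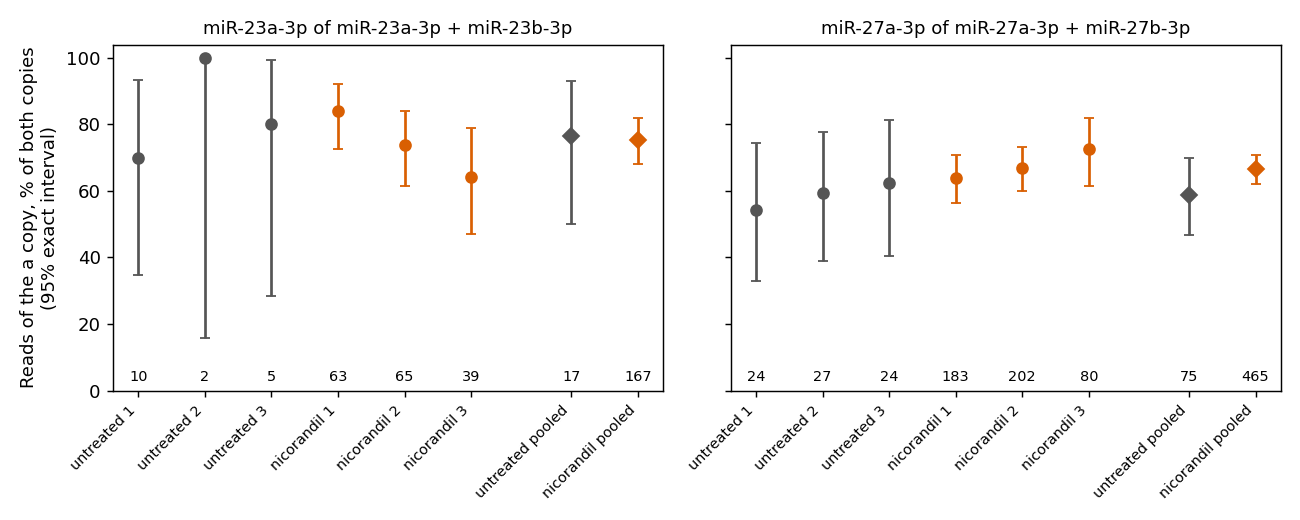
Reads of the miR-23a cluster copy as a percent of both copies, per library and pooled, with 95% Clopper-Pearson intervals and the number of reads of both copies printed along the base. The miR-27 pair runs from 54.2% to 72.5% and the miR-23 pair from 64.1% to 100%, the last from 2 reads.

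In sum over both families, miR-23a-3p and miR-27a-3p together took 0.899%, 0.814% and 0.813% of the untreated and 1.02%, 1.12% and 0.985% of the nicorandil libraries. miR-23b-3p and miR-27b-3p together took 0.629%, 0.497% and 0.428% against 0.457%, 0.515% and 0.427%. The first pair was higher in every nicorandil library, though the share of each of its members alone overlapped between the groups, and the second pair overlapped. How often sums of other miRNAs separate in this way was not counted. These sums are given with no test.

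The opposite arms of the hairpins were scarce, with one exception. miR-24-2-5p, cut from the miR-24 hairpin of the miR-23a cluster, had 6, 3 and 4 reads in untreated and 23, 30 and 13 in nicorandil libraries. miR-24-1-5p, from the hairpin of the miR-23b cluster, had 1 read in all, in nicorandil replicate 1. Their sequences, shown because they alone tell the miR-24 hairpins apart, share the first 16 bases.
miR-24-2-5p: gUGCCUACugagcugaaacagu
miR-24-1-5p: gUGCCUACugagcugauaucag
Pooled over the nicorandil libraries miR-24-2-5p made up 98.5% of the 67 reads of these 5′ arms (95% Clopper-Pearson interval 92.0% to 100%), and all 13 in the untreated libraries. Against miR-24-3p it took 3.75%, 2.16% and 2.33% of the reads of both arms in untreated and 2.68%, 3.36% and 3.18% in nicorandil libraries, which overlap. How many miR-24-3p reads come from each hairpin cannot be read from these arms, since the stability of each arm was not measured. miR-24-2-5p did not pass the test, with a log2 fold change of 0.16 (SE 0.39, limma adjusted p = 0.86). miR-27a-5p had 5 reads, miR-23a-5p and miR-23b-5p had 1 read each, all in nicorandil libraries, and miR-27b-5p and miR-3074 had none. Of the 7 other miRNAs of both loci, 1 could be tested.

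A list of 13 other miRNAs known for roles in blood vessel growth was set beside the members. Of its 8 tested miRNAs none was higher and 2 were lower, with a median log2 fold change of 0.07 beside 0.23 over all tested, of which 14.0% were called higher and 7.44% lower. Both falls were also called with library totals and with median-of-ratios scaling. let-7f-5p fell from 61.0 ± 6.35 to 29.6 ± 13.3 normalized reads (SD, n = 3). The endothelial miR-126a-3p fell from 13.0 ± 2.77 to 1.99 ± 0.305. It averages under 10 normalized reads and is named, like the next pair, after its values were seen. miR-222-3p was at 4.19 ± 0.186 and 9.35 ± 2.78, above all untreated values in every nicorandil library but not past the test (log2 fold change 0.96, limma adjusted p = 0.19). miR-221-3p, from the same cluster, was at 2.67 ± 2.44 and 6.54 ± 3.78 and overlapped (log2 fold change 1.18, limma adjusted p = 0.264). The others with a mean of at least 10 did not pass either. let-7b-5p was at 35.2 ± 4.97 and 37.3 ± 5.56, miR-378a-3p at 28.9 ± 7.63 and 30.0 ± 6.95, and miR-92a-3p at 13.8 ± 5.05 and 17.3 ± 4.65.

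Over the 6 libraries, the miRNAs most like each member were taken among 51 others with a mean of at least 10 normalized reads, by Pearson's r of log2(value + 1). All points share the depth difference between the groups. miR-23a-3p was closest to miR-125a-5p (r = 0.92), miR-99a-5p (0.87) and miR-99b-5p (0.85), and miR-27a-3p to miR-151-3p (0.98), miR-143-3p (0.96) and miR-148a-3p (0.93). miR-27b-3p was closest to miR-181a-5p (0.90), miR-22-3p (0.88) and miR-152-3p (0.87). For miR-24-3p the closest was miR-92a-3p (0.85), followed by miR-29a-3p (0.66) and let-7a-5p (0.63), and for miR-23b-3p miR-146a-5p (0.88), miR-320-3p (0.69) and miR-423-5p (0.67). Among the members themselves r was 0.65 for miR-23a-3p with miR-27a-3p, 0.80 for miR-23a-3p with miR-23b-3p and -0.34 for miR-23b-3p with miR-27b-3p.

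Markers of the labelled cell type were present in every library as a sum. The 10 mesenchymal miRNAs of the list together took 27.2% to 27.8% of the untreated and 26.0% to 31.2% of the nicorandil libraries, most of it miR-143-3p. miR-145-5p had 0 reads in all untreated libraries, miR-221-3p 0 in untreated replicate 1, and miR-31a-5p a total of 1 read, in nicorandil replicate 2. On the deposited scale 4 of the 9 tested (miR-100-5p, miR-145-5p, miR-143-3p and miR-21-5p) were higher and none lower, beside 14.0% and 7.44% of all tested. Their median log2 fold change was 0.73, beside 0.63 for the miR-23/24/27 members and 0.23 over all tested. With library totals, and also with median-of-ratios scaling, 1 of the 9 was called, miR-145-5p, with list medians of 0.33 and 0.55 beside -0.12 and 0.11 over all tested. Of all 121 tested, 4 and 6 were called higher on these scales. Summed markers of 4 other cell types were lower in every nicorandil library, as were the shares of 21.5% of all tested miRNAs taken singly. On the deposited scale all 3 liver and gut miRNAs and the 1 tested endothelial one were called lower. So were 1 of 2 tested epithelial and 1 of 3 tested blood cell miRNAs, beside 7.44% of all tested. Not all members fell: miR-142-5p had a log2 fold change of 0.36 and miR-223-3p averaged 0.619 and 1.07 normalized reads. miR-144-3p, miR-141-3p and miR-205 were read only in nicorandil libraries. The 3 liver and gut miRNAs took 1.44% to 2.61% of untreated and 0.463% to 0.617% of nicorandil libraries, and the 6 epithelial ones 0.181% to 0.385% and 0.0237% to 0.0301%. The 2 endothelial ones took 0.181% to 0.360% and 0.0301% to 0.0356%, with miR-126a-5p at 0 reads. The 7 blood cell ones took 0.678% to 0.854% and 0.263% to 0.415%, with miR-150-5p at 0 reads. The neuronal and muscle sums overlapped between the groups. The 4 neuronal ones took 2.14% to 2.98% and 2.01% to 2.56%, with miR-124-3p and miR-9a-5p at 0 reads, and the 4 muscle ones at most 0.0120%. The part of these markers, the mesenchymal ones included, and of the depth difference in the shifts of miR-23a-3p, miR-27a-3p and miR-24-3p was not tested.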

How the data were processed

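The 6 small RNA libraries were grouped by their labels into 3 untreated and 3 nicorandil libraries. The submitters' processing notes name FastQC, Bowtie and edgeR. Their versions, the genome build and the annotation are not stated in the labels. The authors deposited a read-count signal per mature miRNA in the form of edgeR pseudo-counts. Their table also holds log2 fold changes and p-values without adjustment, per the file headers. Whole reads were recovered by inverting the pseudo-count formula, for 100% of 763 miRNAs at a relative tolerance of 1e-05, and recomputed values matched the deposited signal to within 4.8e-07.

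The 121 miRNAs with a mean of at least 1 were tested with limma 3.58.1 (R 4.3.3, intensity trend) after taking log2(value + 1), so fold changes of low miRNAs are understated. Adjusted p-values (Benjamini-Hochberg, threshold 0.05) cover all 121. Shares and within-library ratios used recovered reads and two-sided exact permutation tests. Shares were adjusted over all tested miRNAs, where the 5 members alone had been planned. The ratios were planned without added reads; 0.5 was added for pairs with miR-23b-3p, which has a library with 0 reads. Intervals are at 95%: Wilson for a share, exact binomial for ratios of pooled reads. The scripts were tested on simulated data. The miRNAs named are the 5 members, 7 other miRNAs of the loci, 13 angiogenesis-associated miRNAs (values for those with a mean of at least 10, and miR-126a-3p, miR-221-3p and miR-222-3p, chosen after their values were seen), the 3 most like each member, and cell type markers. Members and lists were chosen with earlier results of these data known. Alternatives were other pseudocounts, filters, scalings, DESeq2 1.42.0, tests of edgeR 4.0.16, the replicate block and left-out libraries.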

Additional observations from a re-analysis of the deposited data

How the results depend on the processing

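The number of called miRNAs, 26 in limma (17 higher, 9 lower), was 15 for library totals (4 and 11), 15 for median of ratios (6 and 9), 14 with DESeq2 (5 and 9) and 11 to 21 with a library left out, the fewest without nicorandil replicate 2 (6 and 5). miR-23a-3p was not called with library totals (log2 fold change 0.76), median-of-ratios scaling (0.97), DESeq2 (0.89), or edgeR's quasi-likelihood or exact test (1.12 in both); with a library left out it lay at 0.84 to 1.36. miR-27a-3p was not called with those 5 settings (0.18, 0.40, 0.42, 0.65 and 0.65) or without a filter (0.63, adjusted p = 0.104), where more miRNAs were tested; with a library left out it lay at 0.52 to 0.71. Under library totals, median of ratios and DESeq2, miR-24-3p was at -0.43, -0.20 and -0.20 and miR-27b-3p to -0.37, -0.15 and -0.12; only the first of these was called (limma adjusted p = 0.02). The median of all tested also differed between the scales. Relative to it, miR-24-3p lay at -0.20 on the deposited scale and -0.31 on both other limma scales, and miR-27b-3p at -0.16, -0.25 and -0.26, below it each time. On the deposited scale, library totals and median of ratios, miR-23a-3p lay above it by 0.87, 0.87 and 0.86. In the same order miR-27a-3p lay above it by 0.39, 0.30 and 0.30. Not every miRNA moved the same way, since miR-23b-3p was at 1.20 on the deposited scale and 1.29 with median of ratios. With a library left out miR-24-3p ranged from -0.02 to 0.11 and miR-27b-3p from -0.06 to 0.29, and neither was called. miR-23b-3p was called in none of the 15 alternatives that tested it and ranged from 0.65 to 1.69 with a library left out; at a mean of at least 10 it was not tested. A pseudocount of 10 moved it from 1.20 to 0.41 and miR-23a-3p from 1.11 to 0.65, and one of 0.1 to 1.68 and 1.19, with no change of call. In scalings added after the data were seen, 1 mesenchymal marker was called with library totals and with median of ratios, against 4 on the deposited scale, and the 2 falls of the angiogenesis-associated list were called on every scale. For the scalings, the tests and the left-out libraries the cause was not tested.

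The differences of 4 ratios between members moved by less than the spread between replicates (1 SD) under every alternative run. For miR-27a-3p to miR-27b-3p that SD was 0.27 beside a difference of 0.57. For the others it exceeded the difference (0.7 beside -0.12, 0.76 beside 0.65 and 1.24 beside 1.22), so a move below it says little. Among the ratios without overlap, only miR-27a-3p to miR-27b-3p was run under these alternatives. With a library left out miR-27a-3p to miR-27b-3p ranged from 0.41 to 0.70, miR-23a-3p to miR-23b-3p from -0.53 to 0.24, miR-23a-3p to miR-27a-3p from 0.12 to 1.17 and miR-23b-3p to miR-27b-3p from 0.44 to 1.85.

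Same-numbered libraries did not deviate together (correlations of 0.01, 0.04 and -0.03 over the 121 miRNAs), and no label says that they share a culture. With the replicate number as a block 26 miRNAs were called, miR-23a-3p and miR-27a-3p among them (limma adjusted p = 0.0168 and 0.0176). The paired ratio of miR-27a-3p to miR-27b-3p differed by 0.57 as before, since pairing cannot change a mean difference between groups of equal size. Depth limits the members most in the untreated libraries, where a count of 0 allows shares of up to 0.128% to 0.136%, taken as 3 reads.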
